A study of Zea mays with 9 samples.

Results

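The 4 genes described here belong to siroheme synthesis, sulphate activation and methionine synthesis in the maize root apex, and they are 4 of the 45260 genes in the deposited expression table. They were taken by identifier. Zm00001d011428 and Zm00001d044138 carry the annotation uroporphyrin-III C-methyltransferase, Zm00001d048785 is named adenylyl-sulphate kinase 3 in the study, and Zm00001d013644 is the gene that the study's KEGG reconstruction lists under selenocompound metabolism, where its orthology group is that of the cobalamin-independent methionine synthase. Zm00001d044138 also carries the KEGG assignment to the uroporphyrin-III C-methyltransferase group, whereas Zm00001d011428 was found under the enzyme's Gene Ontology term and not in the KEGG lists. Within the study, all 4 genes come from the 835 genes called nitrate-responsive in these libraries, so their nitrate ratios describe the choice and are not independent of it. The study also sorted the 835 into clusters by their levels with cPTIO, and its lists are given by cluster. The cPTIO ratios of the 4 genes are therefore not independent of the choice either.

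Primary root apices were taken from seedlings of the B73 inbred line, the maize genotype on which the reference genome is based. In the +NO3- + cPTIO condition the seedlings spent 24 h in a nutrient solution with 1 mM nitrate and 1 mM cPTIO, a compound that scavenges nitric oxide (NO). In +NO3- the solution held 1 mM nitrate alone, and in -N it held no nitrogen. All seedlings had germinated in the dark and had then been kept in the solution without nitrogen before the transfer, so the 3 conditions share a period of nitrogen deprivation. The labels list 9 libraries of pooled seedlings, 3 for each condition, and RNA-seq values were deposited as RPKM (reads per kilobase of transcript, scaled for library size, here by the authors' quartile normalization), with 1 pooled value per gene and condition.

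Since the table holds no value per library, the spread between replicates is unknown and no difference given here was tested. The study itself called the 835 genes with a test on its libraries, at limits of fold change and false discovery rate. The depth behind each value is not known from the table, though the study reports read totals per library. The methods of the study state that only part of the +NO3- + cPTIO libraries was kept after filtering. The titles mark the +NO3- and -N libraries, and not those of +NO3- + cPTIO, as re-analyzed. Whether all libraries were sequenced together is not given in the sources used here, and its part in the cPTIO comparisons was not tested. A gene was counted as past the limit when the ratio of its RPKM between conditions exceeded 2-fold. Expression of 20254 genes in +NO3- + cPTIO, 20852 in +NO3- and 20324 in -N reached an RPKM of 1. In whole apices, fewer cells of a type and less RNA per cell cannot be told apart.

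Siroheme is an iron-containing tetrapyrrole made from uroporphyrinogen III, the intermediate from which haem and chlorophyll also derive. Uroporphyrin-III C-methyltransferase adds the methyl groups that commit the ring to siroheme, and in plants siroheme serves as the cofactor of ferredoxin-nitrite reductase and of sulphite reductase, which reduce nitrite to ammonium and sulphite to sulphide. Sulphate enters metabolism as adenylyl sulphate. This compound is either reduced toward sulphide and cysteine or phosphorylated by adenylyl-sulphate kinase, and the phosphorylated form donates sulphate groups to hormones, peptides and secondary compounds. Methionine synthase transfers a methyl group from a folate to homocysteine, the last step of methionine synthesis, and accepts the selenium analogue of homocysteine as well. Nitrate and sulphate assimilation thus draw on a shared cofactor and meet in the sulphur amino acids.

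Both methyltransferase genes and the kinase gene had their highest level in +NO3- + cPTIO, an intermediate level in +NO3- and the lowest in -N, whereas the methionine synthase gene was highest in -N. With nitrate alone, 3 of the 4 genes were over 2-fold higher than in -N and 1 was over 2-fold lower. Of all genes compared, 5.24% were over 2-fold higher and 2.54% over 2-fold lower. The count among the 4 follows from their choice as nitrate-responsive genes. When cPTIO was added to nitrate, the kinase gene alone among the 4 passed 2-fold, with a level 4.61 times that in +NO3-. Over all genes compared, 7.08% were over 2-fold higher in that comparison. The spread of levels among the genes was wide, from an RPKM of 0.919 for Zm00001d011428 in -N to 325 for Zm00001d013644 in the same condition. RPKM is scaled to transcript length, so these levels may be set side by side.

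**Figure D1:**
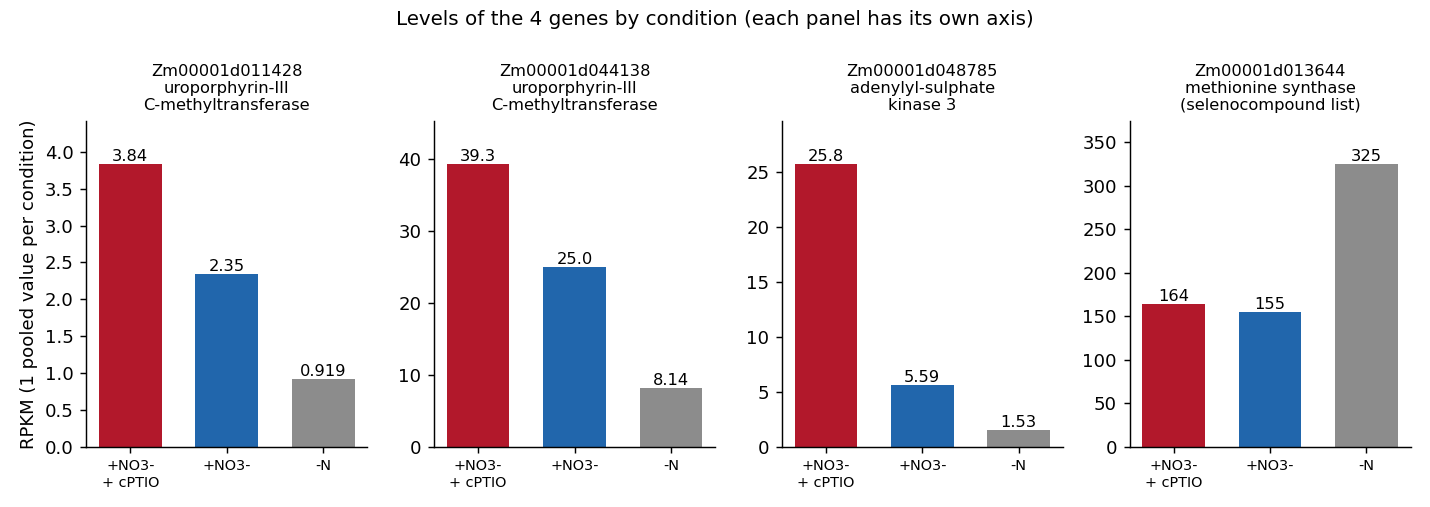
RPKM (vertical axis, starting at 0, scaled separately in each panel) of the 4 genes in +NO3- + cPTIO, +NO3- and -N, each bar being the single pooled value of a condition. The bars fall from left to right for the methyltransferase genes and the kinase gene, while Zm00001d013644 stands at 164 and 155 RPKM in the nitrate conditions against 325 RPKM in -N.

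Zm00001d044138, the more abundant uroporphyrin-III C-methyltransferase gene, lies on chromosome 3 of AGPv4 from 220166616 to 220170536. Its RPKM was 39.3 in +NO3- + cPTIO, 25.0 in +NO3- and 8.14 in -N. Nitrate alone was thus accompanied by a 3.07-fold higher level (log2 ratio 1.62), and the addition of cPTIO by a further 1.57-fold (log2 ratio 0.65), which is under the 2-fold limit. On the scale of RPKM the steps were of like size, 14.3 RPKM between +NO3- + cPTIO and +NO3- and 16.8 RPKM between +NO3- and -N. Among all genes with a value above 0, the gene stood at percentile 86.2 in +NO3- + cPTIO, 79.4 in +NO3- and 57.6 in -N.

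Zm00001d011428, the second gene of this enzyme, is located on chromosome 8 from 150252008 to 150255723. It had an RPKM of 3.84 in +NO3- + cPTIO, 2.35 in +NO3- and 0.919 in -N. The order of the conditions was the same as for Zm00001d044138 at a far lower level, with 2.56-fold more in +NO3- than in -N (log2 ratio 1.35) and 1.63-fold more in +NO3- + cPTIO than in +NO3- (log2 ratio 0.71). It was the only one of the 4 genes with an RPKM under 1 in a condition, and its ratio to -N depended on how low values were treated. With 1 RPKM added to each value, the log2 ratio of +NO3- to -N was 0.80, below the 2-fold limit, and that of +NO3- + cPTIO to -N was 1.33, against 2.06 without the addition.

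The methyltransferase genes kept nearly the same proportion to each other in all conditions. Summed over the pair, the RPKM was 43.1 in +NO3- + cPTIO, 27.3 in +NO3- and 9.06 in -N, and Zm00001d044138 made up 91.1% of the sum in +NO3- + cPTIO, 91.4% in +NO3- and 89.9% in -N. The summed level was 3.02 times higher in +NO3- than in -N and 1.58 times higher in +NO3- + cPTIO than in +NO3-. The similarity of their sequences was not examined here, and the authors' counting divided reads with several places among genes, so reads shared between them would move their proportion. Neither gene overlaps another gene of the table. The nearest genes in the table lie 5677 and 24802 bases from Zm00001d011428, and 41814 and 45624 bases from Zm00001d044138.

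How alike the patterns were was measured as the distance between genes in a plane of log2 ratios, +NO3- to -N on one axis and +NO3- + cPTIO to +NO3- on the other, over the 21578 genes above 0 in all 3 conditions that reached an RPKM of 1 in at least 1. The methyltransferase genes lay 0.27 log2 units apart. For Zm00001d011428, 30 genes of the table were closer than its partner, and for Zm00001d044138, 20 were. Within a radius of 0.25 there were 23 genes around Zm00001d011428 and 17 around Zm00001d044138, of which 11 and 10 belong to the 835 nitrate-responsive genes. The study called the 835 at the same 2-fold limit, and 1657 of the 21290 genes compared between +NO3- and -N were past 2-fold. The 835 are thus a large number beside the genes past this limit. Genes this close are themselves past 2-fold in the nitrate ratio, so the overlap follows in part from the search. Closest to Zm00001d011428 were Zm00001d044068, Zm00001d039764 and Zm00001d034783, at distances of 0.03 to 0.05. Closest to Zm00001d044138 were Zm00001d048841, Zm00001d023596 and Zm00001d028816, at distances of 0.05 to 0.08. The likeness rests on 3 values per gene, and the files pair none of these identifiers with a name.

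Zm00001d048785, adenylyl-sulphate kinase 3, spans 5524277 to 5526586 of chromosome 4. Its RPKM was 25.8 in +NO3- + cPTIO, 5.59 in +NO3- and 1.53 in -N. The nitrate step was 3.65-fold (log2 ratio 1.87) and the cPTIO step 4.61-fold (log2 ratio 2.20), so that the level in +NO3- + cPTIO was 16.8 times that in -N. Unlike the methyltransferase genes, it gained far more RPKM with cPTIO, 20.2, than with nitrate alone, 4.06. Of the genes with a finite ratio in the comparison of +NO3- + cPTIO with +NO3-, 362 had a higher one, and 107 did in the comparison of +NO3- + cPTIO with -N. Among the genes above 0, it stood at percentile 79.1 in +NO3- + cPTIO, 51.2 in +NO3- and 35.5 in -N.

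A single gene lay within 0.25 log2 units of Zm00001d048785 in the plane of both ratios. This was Zm00001d029708, assigned to the glutathione S-transferases, enzymes that attach the sulphur-containing tripeptide glutathione to their substrates, with an RPKM of 26.8 in +NO3- + cPTIO, 5.08 in +NO3- and 1.38 in -N. The next closest, Zm00001d045651 and Zm00001d035756, lay 0.29 and 0.34 log2 units away. Both methyltransferase genes lay outside this radius, with distances of 1.58 for Zm00001d011428 and 1.57 for Zm00001d044138, mostly along the axis of the cPTIO step. Few genes lie around the kinase gene, and of the 21578 only 341 and 333 were closer to it than these genes. The genes on each side of Zm00001d048785 were hardly expressed, with at most 0.413 RPKM before it and 0.0899 RPKM after it in +NO3- + cPTIO.

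Zm00001d013644, the methionine synthase gene, lies on chromosome 5 from 16104794 to 16110218 and was by far the most abundant of the 4. It had an RPKM of 164 in +NO3- + cPTIO, 155 in +NO3- and 325 in -N. The level was 2.10 times lower in +NO3- than in -N (log2 ratio -1.07), a difference of -170.1 RPKM, and in +NO3- + cPTIO it was 1.05 times that in +NO3- (log2 ratio 0.08). Even at its lowest it exceeded 96.8% of the genes above 0 in +NO3-. Its neighbor Zm00001d013643 begins before it and ends 18 bases short of it, with 4.59 RPKM in +NO3- + cPTIO, 1.57 RPKM in +NO3- and 1.03 RPKM in -N, an order of conditions unlike that of Zm00001d013644.

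Among all genes, 53 lay within 0.25 log2 units of Zm00001d013644 in both ratios, the largest number for any of the 4, and 18 of them are among the 835. Genes this close are themselves near or past 2-fold lower with nitrate, so this overlap too follows in part from the search. The 835 again stand beside 1657 genes past 2-fold in the nitrate ratio. The closest were Zm00001d047945, Zm00001d040066 and Zm00001d048418, at distances of 0.07 to 0.10. Against -N, the log2 ratio of Zm00001d013644 in +NO3- + cPTIO was -0.99, immediately under the 2-fold limit. When the conditions were rescaled to the same upper quartile it was -1.04 and passed the limit, so its side of the limit in this comparison rests on the scaling.

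The comparison of +NO3- + cPTIO with +NO3- asks whether a gene that responds to nitrate stands at another level when NO is scavenged. In +NO3- + cPTIO, all 4 genes were higher by any amount. For 3 of them the log2 ratios were 0.65, 0.71 and 2.20, and 1 of these passed 2-fold. The fourth, Zm00001d013644, was nearly level at 0.08, and at 0.0013 when the conditions were rescaled to the same upper quartile. The median over the 4 was 0.68. The 3 genes with the larger ratios come from the study's cluster 6, of genes raised further by cPTIO, so their direction here follows from the choice. Zm00001d013644 comes from cluster 2, of genes lowered by nitrate with or without cPTIO, so its near-level ratio does too. Over the 21617 genes compared, which reached an RPKM of 1 in at least 1 of the conditions, the median log2 ratio was -0.07, and 44.9% were higher by any amount in +NO3- + cPTIO. Of these genes, 7.08% were over 2-fold higher and 12.7% over 2-fold lower in +NO3- + cPTIO, so 19.8% were past the limit. The kinase gene exceeded the central 95% of the ratios, from -2.13 to 1.85, while the methyltransferase genes lay inside it, at percentiles 89.3 and 88.1. Zm00001d013644 was at percentile 60.7, between the quartiles of -0.52 and 0.29.

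In the comparison of +NO3- with -N, all 4 genes passed 2-fold, which follows from the lists they were taken from. Of the 21290 genes compared, 7.78% were past the limit, 5.24% higher and 2.54% lower in +NO3-. The largest ratio was that of the kinase gene, ahead of Zm00001d044138 and Zm00001d011428, with 260, 372 and 559 genes of the table above them. Zm00001d013644 was at percentile 2.09. For +NO3- + cPTIO against -N, 3 of the 4 genes were over 2-fold higher, beside 8.33% of the 21312 genes compared, and none was over 2-fold lower, beside 9.21%. The 3 comparisons share their conditions and are not separate evidence. The results of +NO3- + cPTIO against -N also follow in part from the clusters the genes were taken from.

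**Figure D2:**
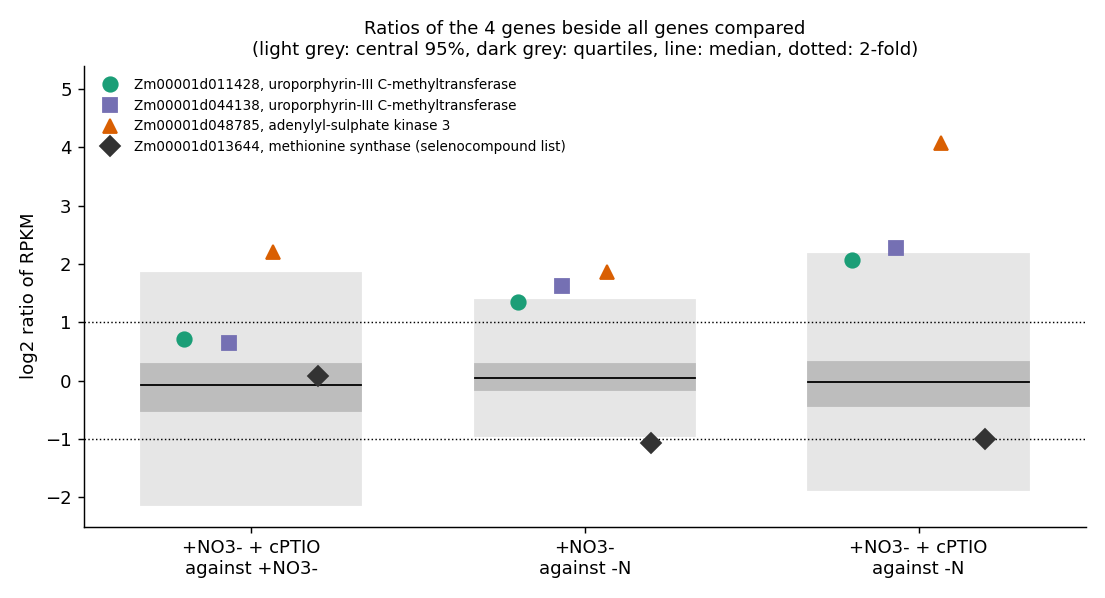
Log2 ratio of RPKM (vertical axis) of the 4 genes (colored symbols) in the 3 comparisons, beside all genes compared with a finite ratio, drawn as the central 95% (light grey), the quartiles (dark grey) and the median (line), with 2-fold marked by dotted lines. Zm00001d048785 lies above the light grey band in each comparison, at 2.20, 1.87 and 4.07, and Zm00001d013644 lies at 0.08, -1.07 and -0.99.

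The part of the nitrate response that was left with cPTIO was expressed as the log2 ratio of +NO3- + cPTIO to -N divided by that of +NO3- to -N, with a value of 0 for a gene back at its -N level and of 1 for a gene whose +NO3- level was kept. It was 1.52 for Zm00001d011428, 1.40 for Zm00001d044138, 2.18 for Zm00001d048785 and 0.93 for Zm00001d013644. None of the 4 stood at its -N level in +NO3- + cPTIO. The study placed the first 3 in its cluster 6, which gathers genes higher with nitrate and higher still with cPTIO, and Zm00001d013644 in cluster 2, which gathers genes lowered by nitrate with or without cPTIO. Because the clusters were drawn from the same values, the shares above 1 of the cluster 6 genes follow from the assignment. The share near 1 of Zm00001d013644 follows from it as well, and so does the absence of a return to the -N level in all 4.

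Inside cluster 6, the genes took different positions. Among its 118 genes above 0 in every condition, the cPTIO step of Zm00001d048785 ranked at 11 from the highest, while those of Zm00001d011428 and Zm00001d044138 ranked at 88 and 93, below the cluster's median log2 ratio of 1.05. Their nitrate steps ranked at 23 for Zm00001d048785, 41 for Zm00001d044138 and 65 for Zm00001d011428, beside a median of 1.38. By level in +NO3-, Zm00001d044138 was at rank 13 of the cluster's 122 genes. In cluster 2, Zm00001d013644 had the fifth highest level of 124 genes in each condition. Its nitrate ratio was among the smallest in size of that cluster, at rank 7 of 120 from the gene nearest to its -N level.

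**Figure D3:**
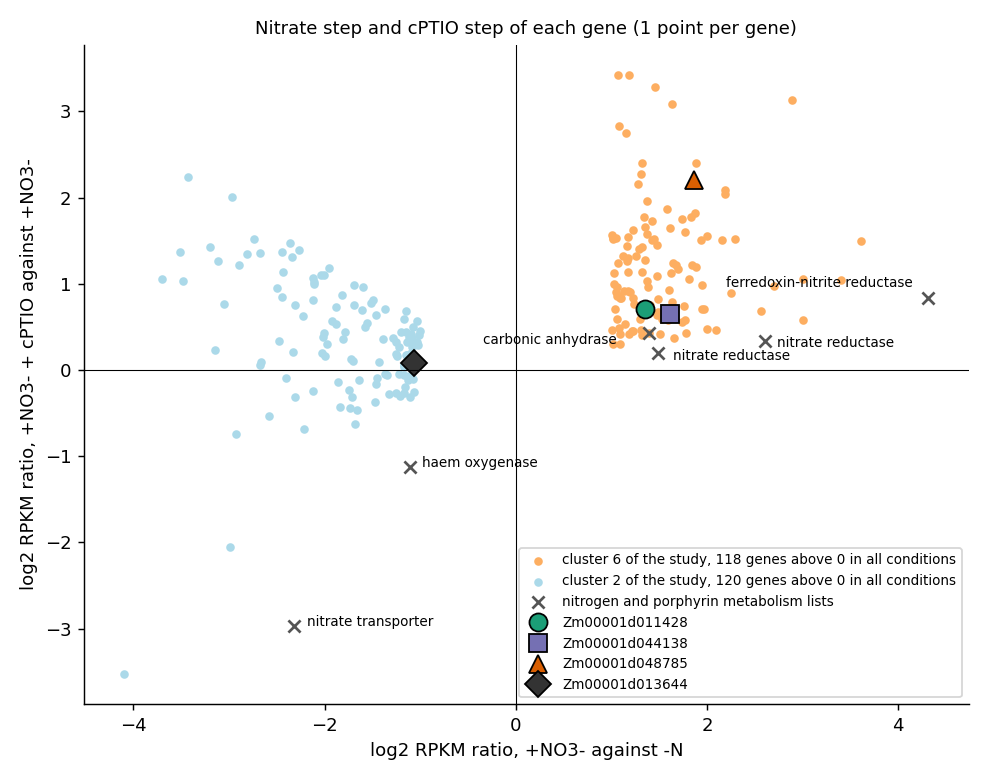
Log2 RPKM ratio of +NO3- against -N (horizontal axis) and of +NO3- + cPTIO against +NO3- (vertical axis) for the 4 genes (large symbols), the genes of clusters 6 and 2 of the study above 0 in all conditions (small points, 118 and 120 genes) and the nitrogen and porphyrin metabolism genes (crosses). The methyltransferase genes lie close together in the lower part of cluster 6, Zm00001d048785 lies above them at 2.20, and Zm00001d013644 lies near 0 on the vertical axis.

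Other genes of the same metabolism were taken from the study's KEGG lists for nitrogen, porphyrin, cysteine and methionine, and glutathione metabolism, 18 genes in all besides the 4. They too are nitrate-responsive by choice, 11 higher and 7 lower in +NO3- than in -N. With cPTIO added to nitrate, 4 were over 2-fold higher, 5 over 2-fold lower and 9 within 2-fold, and their log2 ratios had a median of 0.38 and ranged from -3.96 to 5.46. Against the 19.8% of all genes past the limit in this comparison, these lists hold a larger share, but the genes were picked for their response in a comparison that shares the +NO3- value. The 18 did not share a direction. They come from several clusters of the study, whereas both methyltransferase genes come from cluster 6, so the choice sets this difference.

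Ferredoxin-nitrite reductase, Zm00001d018161, is the enzyme of the list that carries siroheme. Its RPKM was 29.3 in +NO3- + cPTIO, 16.3 in +NO3- and 0.820 in -N. The order of the conditions was that of both methyltransferase genes, with a log2 ratio of 0.84 for the cPTIO step, near their 0.71 and 0.65, and of 4.32 for the nitrate step, far above their 1.35 and 1.62. In the plane of both ratios it lay 2.97 log2 units from Zm00001d011428 and 2.71 from Zm00001d044138, with 20567 and 19913 genes closer to them. Over the genes compared, the quartiles were -0.15 and 0.28 for the nitrate ratio and -0.52 and 0.29 for the cPTIO ratio. Genes with little response in either step therefore count among the closer ones, and the ranks reflect the size of the nitrate step. The study placed Zm00001d018161 in another cluster, 5, which gathers genes higher with nitrate with or without cPTIO. Nitrate reductase, which supplies the nitrite, had 2.23 RPKM in +NO3- + cPTIO, 1.77 RPKM in +NO3- and 0.291 RPKM in -N for Zm00001d049995. For Zm00001d018206, the other nitrate reductase gene listed, the values were 4.66 RPKM in +NO3- + cPTIO, 4.06 RPKM in +NO3- and 1.44 RPKM in -N. The cPTIO steps of these reductase genes were small, with log2 ratios of 0.33 and 0.20.

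Carbonic anhydrase Zm00001d044096 also stood in this order, with 13.4 RPKM in +NO3- + cPTIO, 9.91 RPKM in +NO3- and 3.78 RPKM in -N. The nitrate transporter Zm00001d011679 ran the other way, with 0.0491 RPKM in +NO3- + cPTIO, 0.385 RPKM in +NO3- and 1.93 RPKM in -N. Haem oxygenase Zm00001d046493, which opens the haem ring and so acts on another branch of tetrapyrrole metabolism, had 2.68 RPKM in +NO3- + cPTIO, 5.81 RPKM in +NO3- and 12.6 RPKM in -N. Both its steps were lower by over 2-fold, with log2 ratios of -1.12 for cPTIO and -1.11 for nitrate, opposite to the steps of the siroheme genes.

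Of the 5 further genes of cysteine and methionine metabolism, 3 aminotransferases were higher in +NO3- + cPTIO than in +NO3-, none past 2-fold. The tyrosine aminotransferase Zm00001d048736 had a log2 ratio of 0.93, the alanine-glyoxylate transaminase Zm00001d029083 of 0.91 and the branched-chain aminotransferase Zm00001d028303 of 0.84. ACC synthase Zm00001d039487, which turns the methionine derivative S-adenosylmethionine into the precursor of ethylene, had 1.71 RPKM in +NO3- + cPTIO, 3.99 RPKM in +NO3- and 10.2 RPKM in -N. Spermidine synthase Zm00001d046112, a polyamine enzyme that uses a product of the same compound, had 15.3 RPKM in +NO3- + cPTIO, 25.2 RPKM in +NO3- and 11.1 RPKM in -N, the only one of the 5 that was highest in +NO3-.

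The glutathione list was split. Of its 8 genes, spermidine synthase among them, 4 were over 2-fold higher and 2 over 2-fold lower in +NO3- + cPTIO than in +NO3-. Over all genes compared, these shares were 7.08% and 12.7%. The 4 higher genes come from the study's clusters 1 and 6, and the 2 lower from cluster 3. Those clusters were drawn from the same cPTIO values, so the split follows from the choice. The glutathione S-transferase Zm00001d029699 reached 176 RPKM in +NO3- + cPTIO, with 3.98 RPKM in +NO3- and 8.65 RPKM in -N, and Zm00001d043344 reached 117 RPKM in +NO3- + cPTIO, with 4.46 RPKM in +NO3- and 13.3 RPKM in -N. The gene Zm00001d029707 of the same family went the opposite way, to 0.10 RPKM in +NO3- + cPTIO, with 1.56 RPKM in +NO3- and 5.49 RPKM in -N. Zm00001d029708 was higher in both steps, as described beside the kinase gene. Ascorbate peroxidase Zm00001d025047, which removes hydrogen peroxide, had 45.7 RPKM in +NO3- + cPTIO, 15.8 RPKM in +NO3- and 7.62 RPKM in -N.

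**Figure D4:**
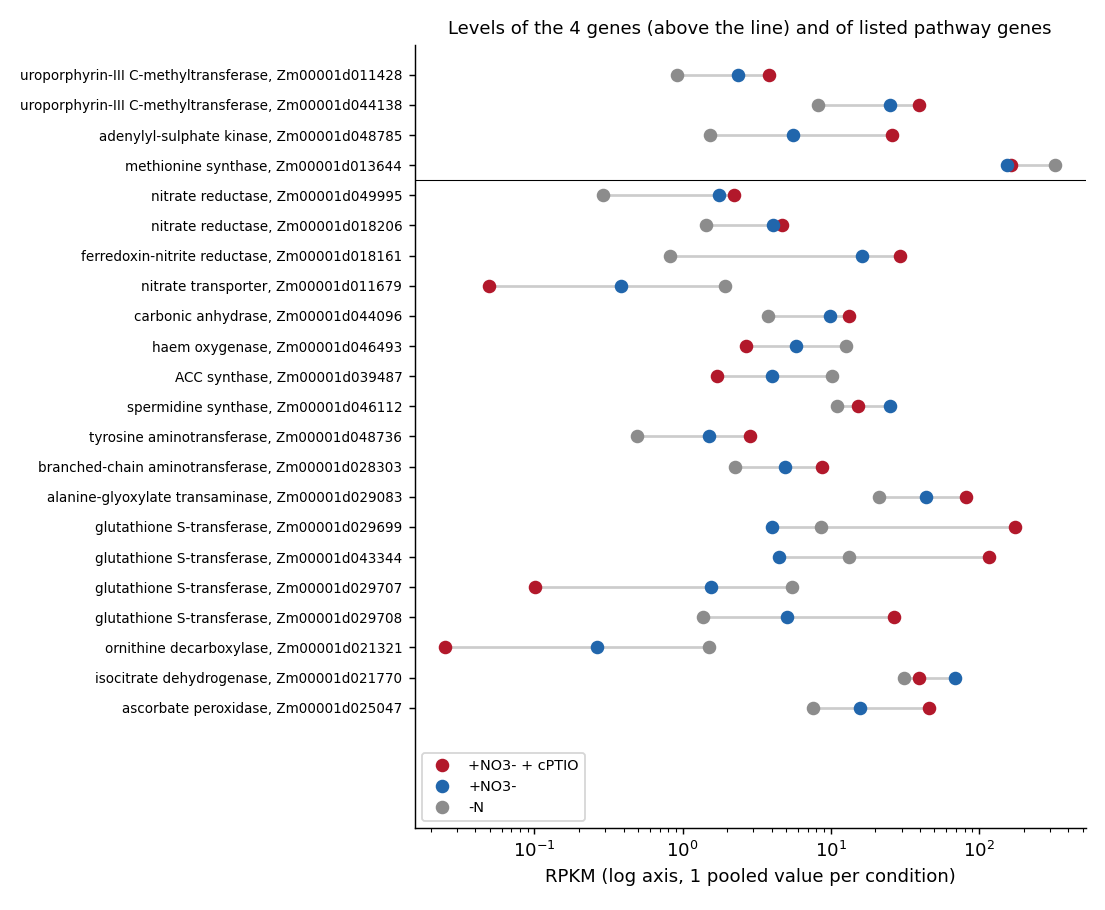
RPKM (horizontal log axis) of the 4 genes (above the line) and the 18 further genes of the KEGG lists (below it), with 1 point per condition and a grey line over the range. The point of +NO3- + cPTIO is rightmost for the methyltransferase, kinase and nitrite reductase genes, leftmost for haem oxygenase and ACC synthase, and far to the right, at 176 and 117 RPKM, for a pair of glutathione S-transferases.

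Genes of the root cap and root hairs also differed between the conditions. The root cap-specific protein Zm00001d045420 had 23.0 RPKM in +NO3- + cPTIO, 6.04 RPKM in +NO3- and 44.7 RPKM in -N. The homologue of SOMBRERO, a root cap regulator known from Arabidopsis (Zm00001d016119), had 4.65 RPKM in +NO3- + cPTIO, 4.77 RPKM in +NO3- and 1.17 RPKM in -N. Roothairless6 (Zm00001d030121), a root hair gene, had 0.170 RPKM in +NO3- + cPTIO, 2.39 RPKM in +NO3- and 7.90 RPKM in -N. All 3 were detected in each condition. None of the 3 had the order of conditions of the methyltransferase and kinase genes, though Roothairless6 had its reverse, and the part of cell composition in the levels of the 4 genes was not tested.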

How the data were processed

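Reads were cleaned by the authors in Trimmomatic 0.33 and aligned to the B73 AGPv4 assembly in TopHat2 2.0.13. The authors computed expression with Cuffdiff from Cufflinks 2.2.1, using multi-read correction and quartile normalization. The values they deposited are RPKM, 1 pooled value per gene and condition, so no test, error or leave-one-out value could be computed, and the depth per library is unknown from the table. The sources name a stranded and an unspecified TruSeq kit, and whether strand was used in counting is not given in the sources used here.

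Ratios of RPKM were computed without a pseudocount with Python 3.11.15 and pandas 2.3.3. A gene entered a comparison when either condition reached 1 RPKM, and a gene at 0 in 1 condition counted as past 2-fold. A table of maize names matched 153 of the 45260 identifiers and none of the 4 genes, so names are the study's, and no sequence is shown. The genes named are the 4 members, the KEGG lists, the 3 genes closest in pattern, direct neighbors and the root tip genes. Members and lists were chosen with earlier results of these data known. Alternatives were a pseudocount of 1 or 0.1, other RPKM minimums, rescaled conditions and a limit of 1.5-fold. Counting steps were tested on simulated data.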

Additional observations from a re-analysis of the deposited data

How the results depend on the processing

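Of the 48 values of the 4 genes' log2 ratios under other pseudocounts and scalings, none changed sign in a called comparison and 44 stayed on their side of 2-fold and within 1.5-fold. The exceptions were the ratios with 1 RPKM added, 0.80 and 1.33 for Zm00001d011428 (+NO3- and +NO3- + cPTIO against -N) and 3.40 for Zm00001d048785 (+NO3- + cPTIO against -N, 4.07 without), and -1.04 for Zm00001d013644 in +NO3- + cPTIO against -N after rescaling to the same upper quartile. With 1 RPKM added, the remaining share of Zm00001d048785 was 2.46. At 1.5-fold, 3 of the 4 genes passed the limit in +NO3- + cPTIO against +NO3-, beside 7951 of the 21617 genes compared. The counts over all genes depended on the limits chosen. For +NO3- + cPTIO against +NO3- the 4271 genes became 2426 with a minimum of 5 RPKM, 7490 with 0.1, 10621 with none, 2797 with 1 RPKM added and 7951 at 1.5-fold. For +NO3- against -N the 1657 became 699, 4303, 7536, 844 and 3656, and for +NO3- + cPTIO against -N the 3737 became 2096, 6872, 9964, 2482 and 7338 under the same settings. Rescaling, an alternative chosen after seeing the data for these counts, kept them within 1.5 times. The causes were not tested. No paired analysis was possible because the table has 1 pooled value per condition, and for the same reason no library could be left out.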
